A study of Mus musculus with 5 samples.

Results

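The genes described here are 10 components of TGF-beta and BMP signalling in mouse pancreatic beta cells. They are the ligand gene Tgfb1, the receptor genes Tgfbr1 and Tgfbr2, the SMAD genes Smad3, Smad6 and Smad7, and the 4 inhibitor of DNA binding genes Id1, Id2, Id3 and Id4. They were chosen by name as members of this pathway, and all 10 were found among the 23951 genes of the authors' deposited table. RNA was sequenced from beta cells of mice carrying the transgenes Ins-rtTA, tet-GFP and tet-p16ink4a (the p16 group, 3 samples) and of control mice carrying Ins-rtTA and tet-GFP alone (the GFP group, 2 samples). Both groups received tetracycline for 10 days, and cells positive for green fluorescent protein were sorted from dissociated islets, so that the groups share the driver, the fluorescent protein, the drug and the sort. In these systems rtTA, an activator that needs a tetracycline to work, switches on genes placed behind a tet promoter, and in Ins-rtTA it is driven by an insulin gene promoter. The p16 transgene encodes p16INK4a, an inhibitor of the cyclin D kinases and a marker of cell senescence. The sources used here do not give strain, age or sex.

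Ligands of the TGF-beta family bring together a type II and a type I receptor at the cell surface. The activated type I receptor phosphorylates receptor SMADs, which enter the nucleus with the shared partner SMAD4 and regulate target genes. SMAD2 and SMAD3 carry the TGF-beta and activin signal, and SMAD1, SMAD5 and SMAD9 carry the BMP signal. SMAD6 and SMAD7 are inhibitory SMADs that act as feedback brakes. The Id genes are classic BMP targets. ID proteins lack a DNA-binding region and hold E proteins, the partners of tissue-specific bHLH factors such as NEUROD1, away from DNA. TGF-beta can arrest the cell cycle, in part by inducing the INK4 inhibitor gene Cdkn2b, and it is among the secreted factors of senescent cells.

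The values are FPKM, fragment counts scaled by transcript length and by library size, with 1 value per group and gene and none per sample. No SD can therefore be given, and the order of 2 genes of like level cannot be checked against the spread between samples. A difference was called where the q-value in the authors' deposited table was below 0.05. Cdkn2a, the gene of p16INK4a, was at 0.657 FPKM in GFP cells and at 34.6 FPKM in p16 cells (the authors' deposited table gives q = 0.00245). This is in the direction of the labels. Of the beta cell markers, G6pc2 stood at 3012 and 2327 FPKM and Slc30a8 at 648.1 and 405.4 FPKM with GFP and p16. Of 7 tested markers on that list 1, Slc2a2, was called lower in the authors' deposited table, beside 1.10% of all tested genes. The list had no common direction, with 3 of the 7 at the higher value with p16 and 4 at the lower value. Ins1, Ins2 and Iapp are listed at 0 with a status for too many fragments, so they carry no estimate.

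The 10 genes fell into a group of clearly detected genes and a group near the lower end of the table. In the GFP group Id2 stood highest at 35.6 FPKM, followed by Tgfbr1 at 21.1, Id4 at 4.12 and Smad7 at 2.25 FPKM. Smad3 (0.408 FPKM), Id3 (0.237), Id1 (0.0917), Tgfbr2 (0.0552), Tgfb1 (0.0476) and Smad6 (0.0151) were all below 1 FPKM there, and all 6 were below 1 FPKM with p16 as well. The median tested gene had a mean of 9.59 FPKM over the groups. In bulk RNA, fewer cells that express a gene and less RNA per cell cannot be told apart.

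Of the 10 genes, 7 had been tested by the authors. Tgfbr2 was called higher with p16, none was called lower, and 6 did not pass. The authors' deposited table holds 13264 tested genes, of which 5.42% were called, 4.32% as higher and 1.10% as lower. A count of 1 in 7 is too small to be set apart from that share. At a q below 0.01 Tgfbr2 was still called, beside 2.78% of all tested genes, and at a q below 0.1 Id2 joined it as lower, beside 7.73%. Filters on the mean FPKM of at least 1 and at least 5 remove Tgfbr2 and left none of the 10 called, beside 5.05% and 4.63% of the genes kept. With a trend in transcript GC content and length removed, Tgfbr2 alone was called, beside 3.54% of genes. This call used a fixed cutoff, described with the processing, and no new q-value. At an unadjusted p below 0.05 in the authors' deposited table, Tgfbr2 was higher and Id2 lower, beside 10.2% and 7.01% of all tested genes. Id1, Smad6 and Tgfb1 were listed without a test. Each untested gene of the 10 had at most 0.266 FPKM in either group, while each tested one reached at least 0.494 FPKM in one of them. Tgfbr2 was below that untested maximum in the GFP group and above it with p16, so it exceeded the untested genes only in the group in which it was high.

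**Figure D1:**
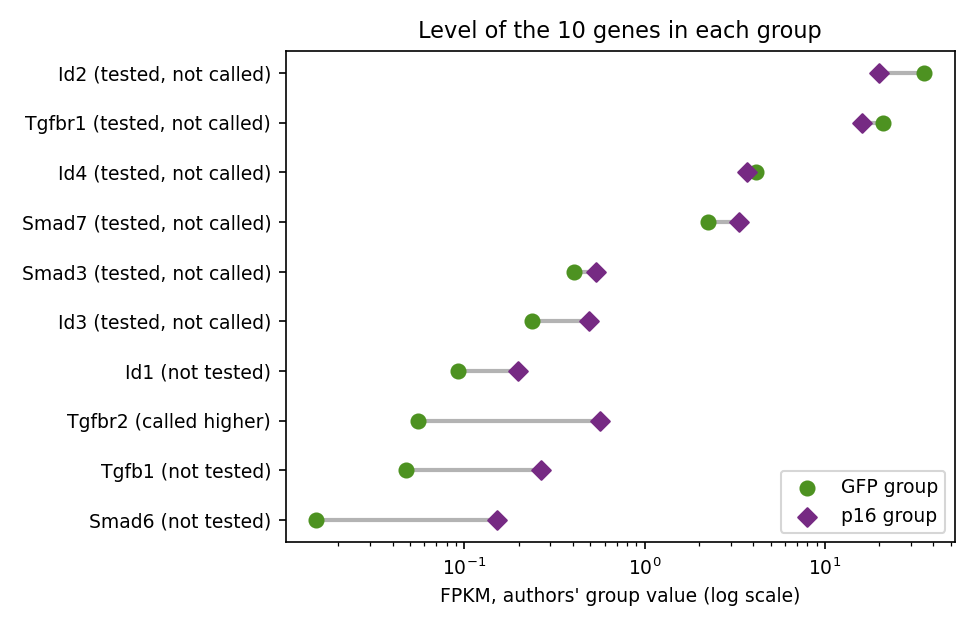
FPKM of the 10 genes on a log axis, 1 group value per point, with circles for the GFP group and diamonds for the p16 group, ordered by the GFP value. The widest gaps belong to Tgfbr2, Smad6 and Tgfb1, all below 1 FPKM, of which Tgfbr2 was called (0.0552 and 0.568 FPKM) and the others were not tested.

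Tgfbr2 encodes the type II TGF-beta receptor, the subunit that binds ligand and phosphorylates its type I partner. Its locus is chromosome 9, 115996813 to 116084481 (mm9, as for all gene positions from the table). Its level was 0.0552 FPKM with GFP and reached 0.568 FPKM with p16, which is 10.3-fold higher with p16 (the authors' deposited table gives q = 0.00752). Even with p16 its level exceeded that of only 5.33% of tested genes. Adding 0.1 FPKM to both groups brought the log2 ratio from 3.36 to 2.11, and adding 1 FPKM brought it to 0.57, so the fold itself is poorly fixed. Of the 1490 tested genes with a mean below 1 FPKM, the authors' deposited table calls 6.85% higher and 0.403% lower, so rises outnumbered falls among scarce genes in general.

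Tgfbr1, the type I receptor gene (chromosome 4, 47366177 to 47427796), was far more abundant than Tgfbr2. Its levels were 21.1 FPKM with GFP and 16.2 FPKM in p16 cells, with no call (the authors' deposited table gives q = 0.487). The ratio of Tgfbr1 to Tgfbr2 FPKM was 383.0 with GFP and 28.4 with p16. With Tgfbr2 at 0.0552 FPKM in the GFP group, the size of this ratio is poorly fixed. The ligand gene Tgfb1 (chromosome 7, 26472021 to 26490015) was listed at 0.0476 and 0.266 FPKM in GFP and p16, without a test.

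**Figure D2:**
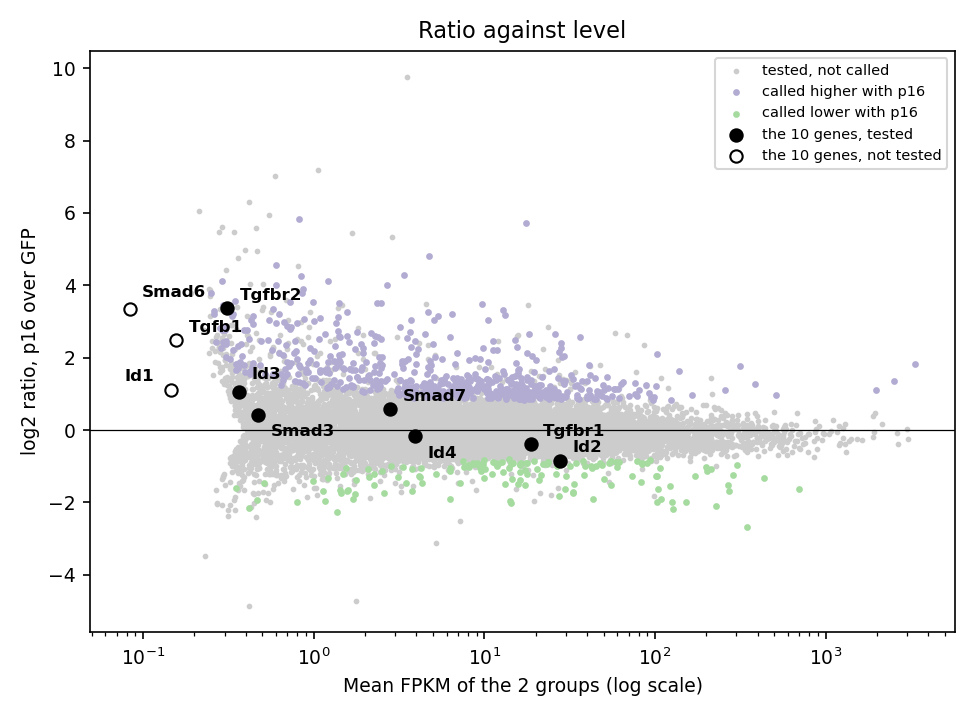
Log2 ratio of p16 over GFP (vertical axis) against the mean FPKM of the groups on a log axis for the genes tested by the authors, without the 90 tested genes listed at 0 in 1 group, and for the 10 genes (black, tested; white, not tested). Large ratios are common among genes of low level, where Tgfbr2, Smad6 and Tgfb1 lie, and Id2 lies at the edge of the genes called lower.

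The 3 SMAD genes gave no call. Smad3, a receptor SMAD of the TGF-beta branch (chromosome 9, 63494574 to 63605801), had 0.408 FPKM with GFP and 0.540 FPKM in p16 cells (the authors' deposited table gives q = 0.707). The inhibitory SMAD gene Smad7 (chromosome 18, 75527019 to 75555588), a common feedback target of TGF-beta, stood at 2.25 and 3.33 FPKM with GFP and p16 (the authors' deposited table gives q = 0.376). Smad6, the inhibitory SMAD gene tied mainly to BMP signalling (chromosome 9, 63800883 to 63869866), was listed at 0.0151 and 0.152 FPKM, without a test. Smad7 was thus the main inhibitory SMAD transcript in both groups, with ratios to Smad6 of 149.0 and 21.9 in GFP and p16. Because Smad6 was near 0 and untested, the size of these ratios is poorly fixed.

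Smad1, Smad2, Smad4 and Smad5 were more abundant than Smad3 and Smad6 in both groups. Smad4, the shared partner of all receptor SMADs, rose 1.80-fold, from 31.4 to 56.4 FPKM (the authors' deposited table gives q = 0.0486). It was called beside 3 tested SMAD genes that did not pass, against 4.32% called higher over all tested genes. This call was lost when the authors' p-values were adjusted again over genes with a mean of at least 1 FPKM (adjusted p = 0.0509). Smad2 stood at 6.49 and 5.11 FPKM with GFP and p16, so its ratio to Smad3 was 15.9 and 9.45. Smad1 and Smad5 together reached 37.4 and 38.8 FPKM, or 5.42 and 6.87 times the sum of Smad2 and Smad3. The BMP receptor SMADs were therefore the larger pool of transcripts in both groups, and none of the ratios between genes has a test.

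Id2 was the main Id transcript in the sorted cells, with 88.9% of the summed FPKM of the 4 Id genes in the GFP group and 81.8% in the p16 group. It lies at chromosome 12, 25778664 to 25780957. Its level was 35.6 FPKM with GFP against 19.8 FPKM with p16, a 1.79-fold higher value with GFP, which narrowly missed the threshold (the authors' deposited table gives q = 0.0576). Adjusting the p-values again over genes with a mean of at least 1 FPKM gave Id2 an adjusted p of 0.0603, and over genes of at least 5 FPKM one of 0.0656. Its log2 ratio of -0.84 stayed between -0.84 and -0.71 with pseudocounts of 0.1, 1 and 5 FPKM.

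The other 3 Id genes were lower. Id4 (chromosome 13, in a locus of 48139600 to 48359405 that also holds A330033J07Rik) stood at 4.12 and 3.71 FPKM with GFP and p16 (the authors' deposited table gives q = 0.902). Id3 (chromosome 4, 135699737 to 135701307) stood at 0.237 and 0.494 FPKM (the authors' deposited table gives q = 0.579). Id1 (chromosome 2, 152561987 to 152563146) was listed at 0.0917 and 0.199 FPKM, without a test. The 2 more abundant Id genes had the lower value with p16 and the 2 scarce ones the higher value, and none of these differences was called. Id2 and Id4 made up 99.2% and 97.1% of the Id transcripts in GFP and p16.

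The proximal promoters of Id2 and Tgfbr2 are printed because these are the only members of the 10 with an unadjusted p below 0.05, in opposite directions. Each run holds the 250 bases before the annotated start, 5′ to 3′ on the gene's strand, from RefSeq (GRCm38.p6, a later build than the mm9 of the table). Capitals mark the SMAD box GTCTG, or its reverse complement CAGAC, and the GC-rich SMAD site GGCGCC. The windows are chr12:25096093-25096342 and chr9:116175364-116175613, both on the minus strand.
Id2: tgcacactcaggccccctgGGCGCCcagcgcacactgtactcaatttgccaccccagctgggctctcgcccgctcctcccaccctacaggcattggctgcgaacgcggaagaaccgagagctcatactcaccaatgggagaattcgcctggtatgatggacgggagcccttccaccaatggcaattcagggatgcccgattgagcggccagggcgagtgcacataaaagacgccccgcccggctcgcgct
Tgfbr2: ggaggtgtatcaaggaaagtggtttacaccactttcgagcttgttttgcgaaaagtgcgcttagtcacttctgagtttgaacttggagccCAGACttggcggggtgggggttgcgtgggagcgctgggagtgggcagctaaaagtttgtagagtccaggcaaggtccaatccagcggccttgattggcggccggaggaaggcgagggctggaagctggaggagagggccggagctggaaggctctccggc
The Id2 window holds 1 GGCGCC site, whose first base lies 231 bases before the start, and 1 E-box (CANNTG), at 196 bases. The Tgfbr2 window holds 1 SMAD box, at 160 bases, and no GGCGCC or E-box. On both strands, 9.59% of 32851 RefSeq promoter windows of this length hold GGCGCC, 42.2% hold the SMAD box and 66.2% hold an E-box. The motif TGACG, a core of cAMP response elements, is in 17.8% of windows and in neither of these. RefSeq promoter entries were used for 8 of the 10 genes, leaving out Id1 and Smad7. Among the other genes, Id4 and 1 of 2 Tgfbr1 windows also hold GGCGCC, the other Tgfbr1 window holds 1 SMAD box and 1 E-box, and Id3 holds 2 SMAD boxes. Id3 and Id4 each hold 1 TGACG motif, which in Id3 overlaps a SMAD box. Smad3, Smad6 and Tgfb1 hold none of these motifs. A match is a description of letters, and binding was not measured.

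The wider pathway was described by 130 further genes in lists ordered by role, of which 69 had been tested. The authors' deposited table calls 8 of the 69 higher and 4 lower, beside 4.32% and 1.10% of all tested genes. The median log2 ratio of the 69 was 0.15, against -0.02 over all tested genes. The lists were chosen with earlier results of these data known, so these counts are a description only. Bmp2, Col1a2 and Itgb6 have means below 1 FPKM and leave the calls under a filter at that level. With the trend in GC content and length removed, Bambi, Bmp2, Col1a2, Nbl1 and Pmepa1 no longer passed. At an unadjusted p below 0.05, the authors' deposited table has 18 of the 69 higher and 8 lower, beside 10.2% and 7.01% of all tested genes.

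Besides the call of Tgfbr2, ligands and receptors gave a single call, where 5.42% of all tested genes were called. Of 8 tested ligand genes, Bmp2, a BMP ligand, rose 7.05-fold (0.0703 FPKM with GFP, 0.496 with p16; q = 0.0322 in the authors' deposited table). Like Tgfbr2 it stayed below 1 FPKM in both groups. A further 21 ligand genes were listed without a test and none of these exceeded 0.347 FPKM. Apart from Tgfbr1 and Tgfbr2, 9 receptor genes had been tested and none was called. None of the 9 was below an unadjusted p of 0.05 in the authors' deposited table, beside 10.2% of all tested genes higher and 7.01% lower. A list of 9 genes is too small to be set apart from these shares. The most abundant were Bmpr1a, a type I BMP receptor, at 30.7 and 24.3 FPKM, and Acvr1, a type I receptor for BMPs and activins, at 14.1 and 12.0 FPKM with GFP and p16. With Tgfbr1 at 21.1 and 16.2 FPKM, type I receptor transcripts were well detected for both branches.

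Of 12 tested genes for extracellular or membrane antagonists and for latency and activation of TGF-beta, the authors' deposited table has 3 higher and 1 lower. This stands beside 4.32% called higher and 1.10% called lower over all tested genes. Itgb6 and Itgb8 encode the beta subunits of the integrins that release active TGF-beta from its latent complex. Itgb6 rose 23.5-fold (0.0488 FPKM with GFP, 1.15 with p16; q = 0.00441 in the authors' deposited table), and with its GFP level near 0 the fold is poorly fixed. Itgb8 rose 2.05-fold (4.47 FPKM with GFP, 9.15 with p16; q = 0.0248 in the authors' deposited table). Nbl1, a secreted BMP antagonist, rose 2.02-fold (16.6 FPKM with GFP, 33.5 with p16; q = 0.0163 in the authors' deposited table). Bambi, a membrane pseudoreceptor that blocks TGF-beta family signalling and is itself a BMP and TGF-beta target, fell from 12.8 to 6.68 FPKM (the authors' deposited table gives q = 0.0257). Other antagonists of this list were not called, the most abundant being Twsg1, a modulator of BMP ligands, at 238.8 and 220.3 FPKM.

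**Figure D3:**
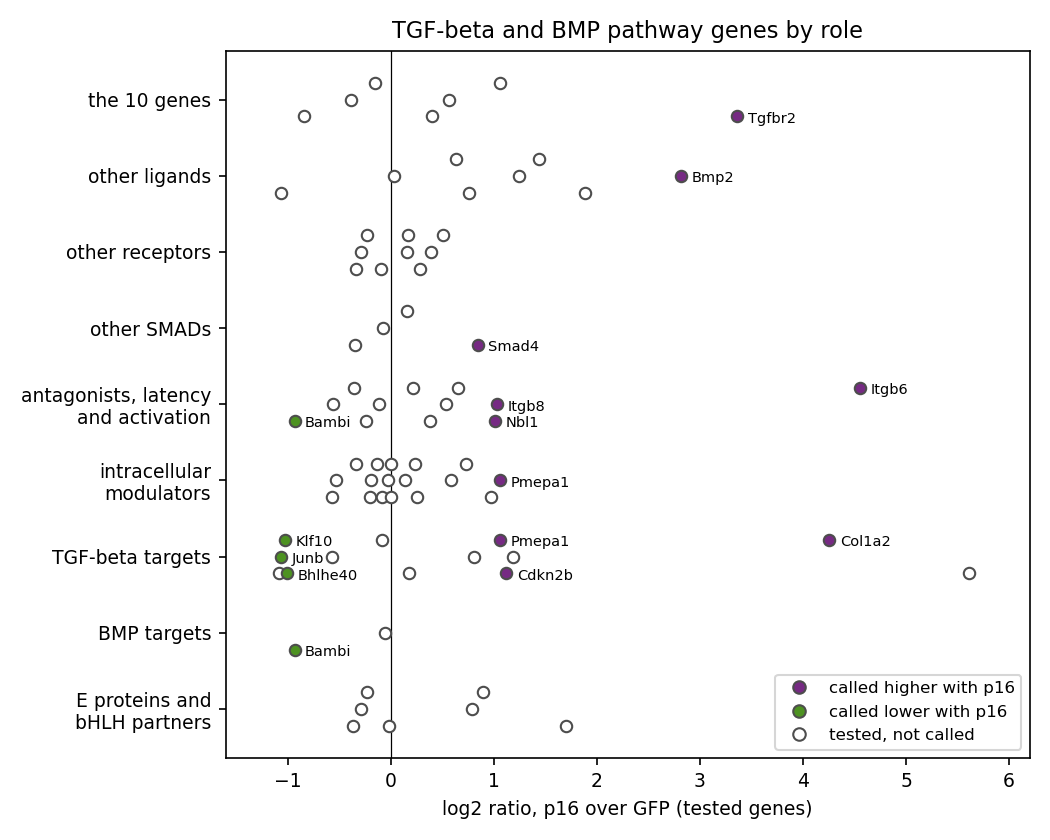
Log2 ratio of p16 over GFP for tested genes of each role, 1 point per gene, with height inside a row only for legibility. Filled points were called in the authors' deposited table (purple higher, green lower) and are named. The TGF-beta targets hold 3 of each. The receptors other than Tgfbr1 and Tgfbr2 hold none, and neither do the E proteins with their partners. Over all tested genes 5.42% were called.

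Target genes gave no common direction. Of 13 tested genes listed as induced by TGF-beta, the authors' deposited table has 3 higher and 3 lower. The shares over all tested genes were 4.32% higher and 1.10% lower. Pmepa1, which encodes a feedback inhibitor that sequesters receptor SMADs, rose 2.09-fold (5.20 FPKM with GFP, 10.9 with p16; q = 0.0105 in the authors' deposited table). Cdkn2b, which encodes p15INK4b, neighbours Cdkn2a on chromosome 4. It rose 2.18-fold, from 8.60 FPKM with GFP to 18.7 FPKM with p16 (the authors' deposited table gives q = 0.0142). Col1a2, a collagen gene, rose from 0.0837 to 1.60 FPKM (the authors' deposited table gives q = 0.00245). Klf10, first known as a TGF-beta inducible early gene, fell from 79.8 to 39.3 FPKM (the authors' deposited table gives q = 0.0152). Junb, of the AP-1 complex, fell from 289.4 to 138.3 FPKM (the authors' deposited table gives q = 0.0363). Bhlhe40, a bHLH repressor, fell from 56.2 to 27.9 FPKM (the authors' deposited table gives q = 0.0118) and shares its locus with 0610040F04Rik. Klf10 and Junb are also immediate early genes that respond to many stimuli.

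Of 12 genes listed as BMP targets besides the Id genes, 2 had been tested. Bambi was called lower, beside 1.10% of all tested genes. The other, the Notch and BMP target Hes1, stood at 4.30 and 4.15 FPKM with GFP and p16 (the authors' deposited table gives q = 0.973). The 10 untested genes of this list were at most 0.1003 FPKM in either group. Of 17 intracellular modulators of SMAD signalling Pmepa1 alone was called, beside 5.42% of all tested genes. A count of 1 in 17 is near that share. The most abundant was Fkbp1a, which encodes a protein that binds type I receptors, at 181.6 and 144.0 FPKM.

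The partners of ID proteins did not pass. The authors' deposited table calls none of 7 tested genes for E proteins and tissue-specific bHLH factors, beside 5.42% of all tested genes. Of the 7, 2 were higher at an unadjusted p below 0.05, beside 10.2% of all tested genes. Neurod1, a bHLH activator of the insulin gene, stood at 195.8 and 152.4 FPKM with GFP and p16 (the authors' deposited table gives q = 0.543). Bhlha15, a bHLH factor of secretory cells, stood at 20.5 and 35.5 FPKM (the authors' deposited table gives q = 0.0656). The E protein genes Tcf3, Tcf4 and Tcf12 summed to 25.4 and 22.3 FPKM. The 4 Id genes summed to 40.1 and 24.3 FPKM, so the ratio of Id to E protein transcripts was 1.58 with GFP and 1.09 with p16. Id2 makes up most of the difference in the Id sum, and the ratio has no test.

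Marker lists of other cell types did not all differ alike between the groups. For comparison, 4.32% of all tested genes were called higher and 1.10% lower. The 8 stellate and fibroblast markers, which include Col1a2, summed to 1.24 FPKM with GFP and 6.30 FPKM with p16. Of the 8, 3 had been tested and 2 were called higher in the authors' deposited table, Col1a2 and Dcn, a matrix proteoglycan gene at 0.133 and 2.29 FPKM, while none was listed at 0. Sparc, the other abundant gene of that list besides Dcn, stood at 0.730 and 1.44 FPKM. Col3a1 stood at 0.169 and 0.186 FPKM, and Lum had the lower value with p16, 0.00907 against 0.0450 FPKM. Without Col1a2 and Dcn the other 6 markers summed to 1.02 and 2.42 FPKM. Tgfbr2 and Bmp2 stood in the same range of level as these markers, and the part of such cells in their rise was not tested. The 8 endothelial markers summed to 3.10 and 3.63 FPKM, of which Esam made up 2.49 and 3.04 FPKM, with none of 1 tested called. The 8 immune markers summed to 2.72 and 3.94 FPKM, with 1 of 2 tested called higher in the authors' deposited table and 2 of 8 listed at 0 with p16. The called gene, Cd68, stood at 0.229 and 1.95 FPKM. Without it the other 7 summed to 2.49 and 1.99 FPKM, and 5 of the 8 were at a lower level in p16 cells. Duct markers summed to 294.6 and 667.5 FPKM, and the authors' deposited table calls 3 of 6 higher and 1 lower. Most of that gap is Cldn4, at 143.3 and 486.5 FPKM, and without it the other 5 summed to 151.3 and 181.0 FPKM. Delta and PP cell markers summed to 1866 and 3998 FPKM, with 4 of 5 called higher in the authors' deposited table. Alpha cell markers summed to 2159 and 2781 FPKM with 1 of 4 tested called higher, and acinar markers to 15.0 and 15.8 FPKM where the authors' deposited table calls none of 5.

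**Figure D4:**
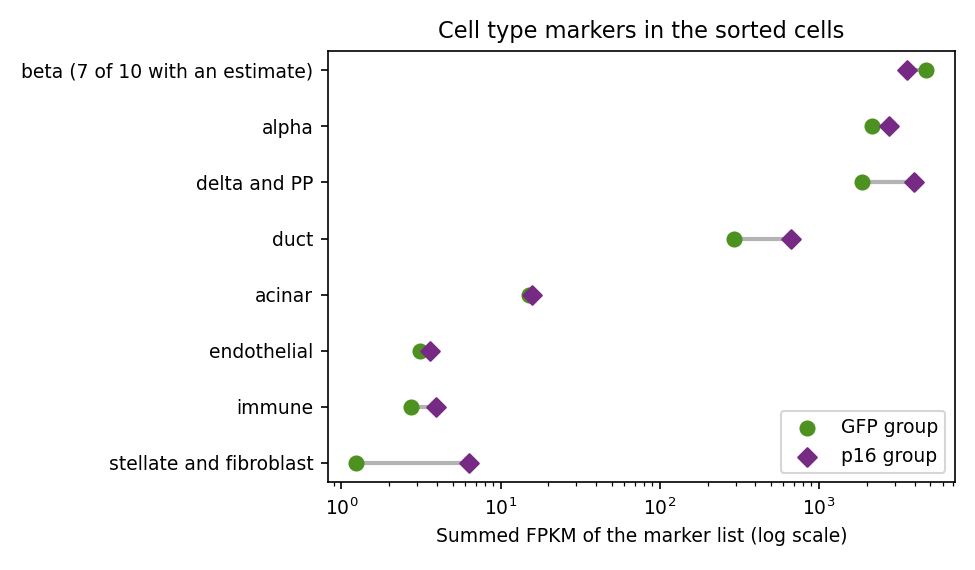
Summed FPKM of each cell type marker list on a log axis, with circles for the GFP group and diamonds for the p16 group; the beta list is summed over the 7 of 10 markers with an estimate. Stellate and fibroblast markers show the widest gap, 1.24 against 6.30 FPKM, and have the lowest sum of the lists drawn in the GFP group but not in the p16 group.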

How the data were processed

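Total RNA of sorted beta cells was sequenced in 5 samples, grouped by their titles in the labels (p16, 3; GFP, 2). The series design names as many mice without tying samples to mice, so part of the spread may be technical. Per the submitters' processing notes, TopHat2, Cuffnorm and Cuffdiff were run on mm9; the sources used here name no versions, annotation or strand setting. The deposited table holds 1 FPKM value per group and gene with the authors' p-values and q-values, so depth per sample is unknown and no count model was run. The design fixed, for a table of group values, a deposited q-value below 0.05 as the call. The deposited q-values differed from a Benjamini-Hochberg adjustment of the p-values of tested genes by at most 5.23e-07.

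Log2 ratios were recomputed from FPKM with no pseudocount, and 1 was added to starts, which the table counts from 0. For the GC and length alternative, the longest GENCODE M21 transcript per gene was used (99.0% of tested genes matched), and splines with 4 degrees of freedom per property were fitted to signed normal quantiles of the p-values. A gene was then called where its remaining quantile was at least 3.00 in size, the smallest value among the genes called by q-value. No new p-value was computed. The Benjamini-Hochberg adjustment and the trend removal were tested on simulated data. Those data were called by adjusted p-value, so the quantile cutoff itself was not tested. Named by rule were the 10 genes, Cdkn2a, up to 6 called genes per pathway list by size of change (or the 2 most abundant where none was called) and the 2 most abundant markers per list, given here only for the lists a result touches; genes named beyond that (Smad1, Smad2, Smad5, Tcf3, Tcf4, Tcf12, Hes1, Twsg1, Slc2a2, Fkbp1a, Tgif1, Col3a1 and Lum) were chosen after their values were seen, as were the marker sums without leading genes. The 10 genes and all lists were chosen with earlier results of these data known. Software was Python 3.11.15 (numpy 2.4.6; pandas 2.3.3; patsy 1.0.2; scipy 1.17.1; matplotlib 3.10.9).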

Additional observations from a re-analysis of the deposited data

How the results depend on the processing

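Among the 10 genes, 2 were called at a q below 0.1 (Tgfbr2 higher, Id2 lower), and 0 were called over genes with a mean of at least 1 or at least 5 FPKM, since those filters remove Tgfbr2; there 595 of 11774 and 404 of 8719 tested genes were called in all. The call of Tgfbr2 was kept at a q below 0.01 and with the GC content and length trend removed, where its signed quantile went from 3.72 to 3.15, and that of Id2 from -2.93 to -2.07. Of the other pathway genes, 2 were called at a q below 0.01 (Col1a2 and Itgb6). Without genes below a mean of 1 FPKM, 4 were higher and 4 lower. With the trend removed 5 were higher and 3 lower, with Tgif1 gained and Bambi, Bmp2, Col1a2, Nbl1 and Pmepa1 lost. Over all genes 369 were called at a q below 0.01, 404 with a mean of at least 5 FPKM and 465 with the trend removed, against 719. Of the 465, 370 were among the 719. The trend explained 23.2% of the variance of the signed quantiles. Median transcript GC content was 53.3% for genes called higher and 43.6% for genes called lower, against 49.7% for all tested genes. Leaving out genes that share a locus, a choice made after seeing the data, left 11 of the 12 pathway calls and the 1 call among the 10 genes. Of 50 ratios of the 10 genes under other pseudocounts and scalings, all kept their sign and 18 moved by over 1.5 times, each for a gene below 1 FPKM. No paired analysis was possible because the table holds group values only, and for the same reason no fit without a replicate was run. Unknown depth limits what can be read from genes below 1 FPKM.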
